A study of Mus musculus with 12 samples.

Results

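The regions described here are almost fully methylated in wild-type progenitors: 35188 of the 107115 candidate regions of the mouse genome that the study tabulated, or 32.9%, had a mean methylation level of at least 90% over the 3 wild-type replicates. The level of a region is the share of its CpG cytosines that read as methylated. The wild-type levels themselves chose these regions, so their wild-type level, and every difference from it, is given as a description without a test. Levels came from whole-genome sequencing of bisulfite-converted and enzymatically converted DNA of lineage-negative bone marrow, the fraction depleted of cells that carry markers of mature blood lineages and so enriched in stem and progenitor cells.

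The 6 mutant samples, labelled dnmt1-/-, came from BALB/c mice with a changed Dnmt1, and the 6 control samples were wild-type BALB/c. Although the labels write the mutant as a null genotype, the series describes a missense change in mice, designed from the structures of hypomorphic fish alleles. The 12 samples are 3 replicate numbers per genotype, each in 2 conversion kits, and enter the table as 3 mutant and 3 wild-type columns. Nothing in the labels says that replicates are separate animals, so p-values measure the spread between these samples, which may be technical. The sources used here do not state ages, the cells in which the allele acts or any pooling of animals. No expression was measured, so the lineage-negative identity of the cells could not be checked against marker transcripts, and a change in the cells' make-up cannot be told apart from a change of methylation within cells.

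DNMT1 is the maintenance DNA methyltransferase: after replication it copies the methyl mark of the parental strand onto CpGs of the new strand, guided by UHRF1, which binds the hemimethylated sites. Most of a mammalian genome outside CpG islands carries this mark, above all the bodies of transcribed genes and repeats. A small class of CpG-rich promoters is also methylated in somatic cells, and the genes of the germ line are its best known members. With less maintenance, methylation that a region holds is diluted over successive divisions unless it is set anew by the de novo enzymes DNMT3A and DNMT3B.

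Some of these germline promoters lie inside the almost fully methylated regions. The 6 windows of 300 bases below run from 250 bases before a gene's start to 50 after it (RefSeq, build GRCm38.p6). They are printed because they show how dense in CpGs a sequence that is over 90% methylated can be, and because they include the gene starts of the germline list with the highest and the lowest mutant levels among the windows that share at least 200 bases with such a region. They were chosen after their values were seen. Capitals mark the CG dinucleotides that lie inside the region measured.

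Ddx4, chr13:112652261-112652560, minus strand: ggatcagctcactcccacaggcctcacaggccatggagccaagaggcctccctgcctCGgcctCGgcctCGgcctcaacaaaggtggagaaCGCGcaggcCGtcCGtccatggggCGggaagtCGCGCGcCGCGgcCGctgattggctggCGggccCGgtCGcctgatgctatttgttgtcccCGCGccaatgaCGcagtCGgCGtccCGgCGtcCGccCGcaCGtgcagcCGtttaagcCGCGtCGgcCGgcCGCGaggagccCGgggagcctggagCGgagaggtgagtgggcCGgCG

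Stk31, chr6:49395289-49395588, plus strand: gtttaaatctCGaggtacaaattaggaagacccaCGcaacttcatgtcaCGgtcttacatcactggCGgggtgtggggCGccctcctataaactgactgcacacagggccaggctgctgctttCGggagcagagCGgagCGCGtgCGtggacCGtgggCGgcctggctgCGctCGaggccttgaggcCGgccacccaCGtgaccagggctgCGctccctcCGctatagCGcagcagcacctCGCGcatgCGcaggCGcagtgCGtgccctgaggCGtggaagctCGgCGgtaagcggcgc

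Slc25a31, chr3:40708621-40708920, plus strand: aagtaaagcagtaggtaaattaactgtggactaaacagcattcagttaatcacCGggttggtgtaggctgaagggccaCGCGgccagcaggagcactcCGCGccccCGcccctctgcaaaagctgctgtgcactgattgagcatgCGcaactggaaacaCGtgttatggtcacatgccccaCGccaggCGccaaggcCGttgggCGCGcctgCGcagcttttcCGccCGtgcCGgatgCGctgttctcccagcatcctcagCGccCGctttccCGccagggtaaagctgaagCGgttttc

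Mov10l1, chr15:88982744-88983043, plus strand: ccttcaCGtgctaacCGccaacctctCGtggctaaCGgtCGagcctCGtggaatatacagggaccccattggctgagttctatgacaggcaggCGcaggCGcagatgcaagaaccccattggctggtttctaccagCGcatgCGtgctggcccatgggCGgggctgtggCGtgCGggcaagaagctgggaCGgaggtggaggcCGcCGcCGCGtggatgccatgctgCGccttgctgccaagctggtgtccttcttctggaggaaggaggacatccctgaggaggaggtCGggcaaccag

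Mael, chr1:166238695-166238994, minus strand: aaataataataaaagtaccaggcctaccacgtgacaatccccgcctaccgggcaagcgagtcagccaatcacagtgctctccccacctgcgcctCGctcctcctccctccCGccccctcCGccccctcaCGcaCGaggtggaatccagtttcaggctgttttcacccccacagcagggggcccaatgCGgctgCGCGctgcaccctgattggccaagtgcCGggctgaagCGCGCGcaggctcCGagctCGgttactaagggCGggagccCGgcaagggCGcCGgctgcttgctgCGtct

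Tex19.1, chr11:121145893-121146192, plus strand: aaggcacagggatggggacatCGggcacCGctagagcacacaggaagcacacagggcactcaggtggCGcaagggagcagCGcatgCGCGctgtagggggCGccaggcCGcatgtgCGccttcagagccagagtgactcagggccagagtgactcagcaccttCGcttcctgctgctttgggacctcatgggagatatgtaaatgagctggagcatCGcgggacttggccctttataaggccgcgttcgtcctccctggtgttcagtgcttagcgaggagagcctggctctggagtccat

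Ddx4, which encodes a germ cell RNA helicase, has 38 CpGs in its window, all of them inside the region. The level of that region was 88.2%, 83.6% and 87.9% in mutant replicates 1 to 3, against 96.3%, 96.4% and 94.7% in wild type. Stk31, a testis kinase gene, has 29 CpGs, 27 of them inside the region. Its region was at 80.8%, 91.4% and 90.9% in the mutant, against 92.3%, 97.6% and 96.3% in wild type. The lowest wild-type value exceeded the highest mutant value in both regions, by less than 1 point at Stk31. It did so in 94.3% of all candidates. Slc25a31, the ADP/ATP carrier of sperm, has 22 CpGs and was at 73.1%, 77.7% and 90.5% in the mutant, against 94.0%, 95.4% and 94.4% in wild type. Mov10l1 encodes a helicase needed to make piRNAs, the small RNAs that silence transposons in germ cells. It has 20 CpGs, and its region was at 81.7%, 79.1% and 80.0% in the mutant, against 89.6%, 94.3% and 92.6% in wild type.

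The remaining pair stood lower and spread more. Mael, another piRNA pathway gene, has 24 CpGs in the window, 19 of them inside the region. The region was at 66.5%, 44.9% and 65.7% in the mutant, against 92.4%, 90.0% and 90.3% in wild type. Tex19.1, a germ cell and placenta gene that restrains retrotransposons, has 16 CpGs, of which 11 lie inside the region. It was at 58.7%, 71.5% and 35.2% in the mutant, against 88.3%, 92.7% and 90.9% in wild type. The mutant SD at Tex19.1 was 18.4 points and the wild-type SD 2.21 points (n = 3 each). The groups did not overlap, where each mutant column lay below each wild-type column in 94.3% of all candidates.

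Across all 35188 regions the mutant columns averaged 77.4%, 79.8% and 82.2%, against 92.5%, 92.9% and 93.1% in the wild-type columns. The mean was 79.8 ± 2.42% in the mutant and 92.8 ± 0.327% in wild type (SD, n = 3 each), a difference of -13.0 points. The median difference of a region was -12.7 points, with quartiles of -15.9 and -9.70. The mutant thus held 86.0% of the wild-type level on average, and the unmethylated share was 20.2% in the mutant and 7.17% in wild type. Every mutant column lay below every wild-type column in these means.

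**Figure D1:**
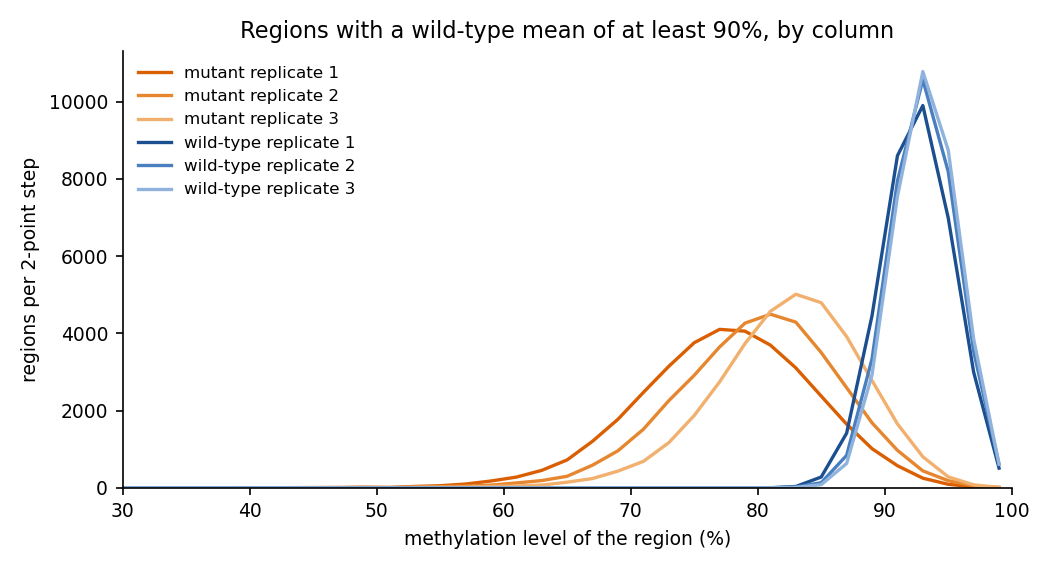
Number of regions per step of 2 points against methylation level (percent) for each of the 3 mutant and 3 wild-type columns, over the 35188 regions. The mutant columns are broad and centred on 77.4%, 79.8% and 82.2%, and the wild-type columns are narrow and centred on 92.5% to 93.1%, where the choice of regions put them.

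Few of these regions lost most of their methylation. The mutant mean lay from 80% to under 90% in 16767 regions and from 70% to under 80% in 15777, so that 92.5% of all members stood between 70% and 90%. Another 1532 lay from 60% to under 70%, 125 below 60%, 24 below 50% and 5 below 40%. At the other end, 987 regions (2.80%) kept a mutant mean of at least 90%, and in 351 of them each mutant replicate was at 90% or more. The mutant mean exceeded the wild-type mean in 19 regions.

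The mutant replicates differed from each other more than the wild-type replicates did. The median range over 3 replicates was 6.89 points in the mutant and 3.33 points in wild type, and the mutant range was the wider in 80.8% of regions. Among the almost fully methylated regions, a range of 20 points or more occurred in 256 in the mutant and in 0 in wild type. Wild-type levels near the upper end of the scale leave little room. Mutant replicate 1 was the lowest of the mutant columns in 63.2% of regions and replicate 3 the highest in 62.1%. Whether conversion kit, coverage or cell make-up moves with these columns was not tested, since the table gives no counts.

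Regions that were lower in 1 mutant replicate tended to be lower in the others. Over the 35188 regions, Pearson's r between mutant columns was 0.67 to 0.69, and between wild-type columns 0.26 to 0.27. The wild-type values are confined by the rule to a narrow span. The mutant mean correlated with the wild-type mean at r = 0.62, a description over regions that share the same 6 columns and, in part, neighbouring sequence.

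The loss was smaller the higher the wild-type level stood. The regions were also shorter, with a median of 659 bp from 90% to under 92% and 200 bp at 98% or more. Whether the loss goes with length was not tested. In the regions from 90% to under 92% in wild type the mutant mean was 76.2 ± 2.59% and the wild-type mean 91.0 ± 0.445% (SD, n = 3 each), a difference of -14.8 points over 13301 regions. From 94% to under 96% the means were 83.6 ± 2.20% in the mutant and 94.8 ± 0.199% in wild type, a difference of -11.2 points. In the 89 regions at 98% or more they were 91.3 ± 1.11% in the mutant and 98.4 ± 0.0896% in wild type, a difference of -7.12 points. The ratio of unmethylated shares ran the other way, from 2.64 in the lowest of these steps to 5.55 in the highest, where the wild-type share is close to 0.

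The classes just below continue this order as wholes, but the steps within the lower class do not all follow it. The 48069 candidate regions with a wild-type mean from 75% to under 90% averaged 63.8 ± 2.56% in the mutant and 84.5 ± 0.540% in wild type, a difference of -20.7 points. The 13403 regions from 50% to under 75% averaged 38.9 ± 2.09% in the mutant and 66.1 ± 0.258% in wild type, a difference of -27.2 points. The mutant therefore kept 86.0% of the wild-type level in the almost fully methylated class, 75.5% in the next and 58.8% in the lowest of these. By step, the difference was -27.2 points from 70% to under 75%, -27.8 points from 60% to under 70% and -26.0 points from 50% to under 60%. Because the classes are cut by the wild-type level and the candidates were picked by the authors on all samples, these differences are given without a test.

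**Figure D2:**
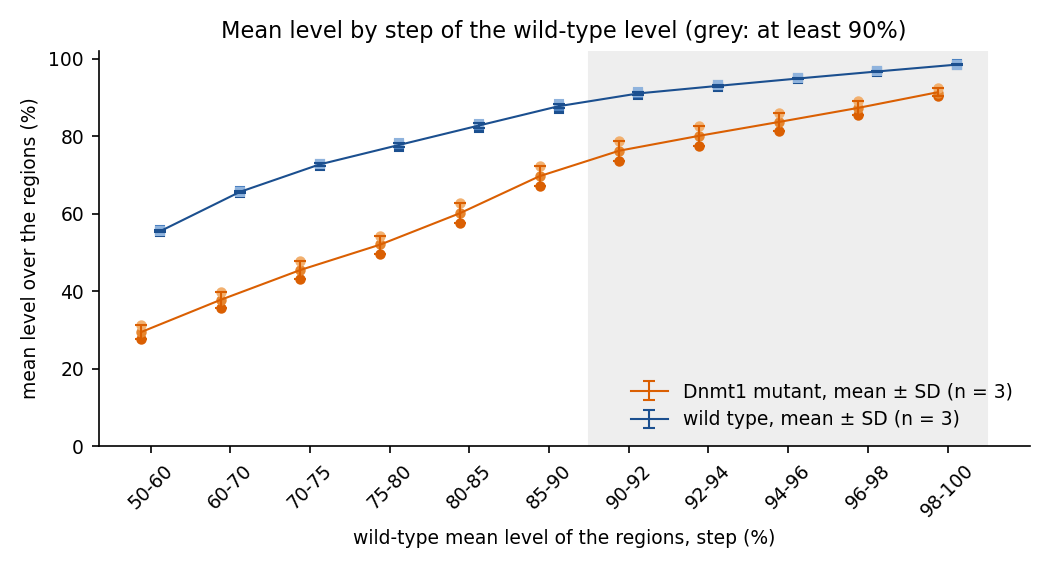
Mean methylation level (percent) over candidate regions grouped by their wild-type mean, for the Dnmt1 mutant and wild type, with points for each of 3 replicates and bars for the SD. The distance between the genotypes is -26.0 points in the step from 50% to 60%, -27.8 points from 60% to 70% and -7.12 points from 98% to 100%. The grey area marks the steps of at least 90%.

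The threshold cuts through a continuous distribution, and 221 regions sat at exactly 90% in wild type (within a tolerance of 1e-07 points). The 3 taken by the rule for regions just inside stood at 77.9%, 83.7% and 76.0% in the mutant, and all at 90.0% in wild type. The 3 just outside stood at 78.6%, 74.6% and 74.5% in the mutant, and a little under the threshold in wild type, at 90.0% after rounding. With at least 90% asked of each wild-type column, 22786 regions remained.

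By limma over all candidate regions (Benjamini-Hochberg adjusted p under 0.05), 33367 of the 35188 regions, or 94.8%, were lower in the mutant, where 93.5% of all candidates were. None was higher: the count was 0 both adjusted and at an unadjusted p under 0.05, and 0.0485% of all candidates were called higher. Since the contrast shares its wild-type columns with the rule, nothing is read from either count. A loss of at least 20 points was called in 2671 regions, or 7.59%, where 34.4% of all candidates had such a call. The authors' deposited list of hypomethylated regions held 2392 of them, or 6.80%, and 33.1% of all candidates. Each mutant column lay below each wild-type column in 33554 regions, or 95.4%, where 94.3% of all candidates did so. Each mutant column lay above each wild-type column in 1 region, where 0.0952% of all candidates did so.

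Regions can also be chosen on 1 wild-type column and compared in the others. Such a choice does not depend on the columns compared, but the candidates were picked by the authors on all 6 columns, so these values too are conditioned on the outcome. When regions were chosen on wild-type replicate 1 alone, 32827 reached 90%. Over these the mutant columns averaged 77.0%, 79.4% and 81.8%, against 92.3% and 92.6% in the wild-type columns that had no part in the choice. The difference was -13.1 points (exact two-sided permutation p = 0.2, the smallest that 3 against 2 samples allow). Choosing on replicate 2 or 3 gave 36482 and 38162 regions, each with a difference of -13.1 points and the same p. The wild-type columns left out averaged 92.5%, 92.0% and 91.8% in the 3 choices, where the choosing column itself stood at 93.1% to 93.2%.

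In the limma fit without the choosing column, 28882 of the 32827 regions chosen on replicate 1 (88.0%) were lower in the mutant, where 90.3% of all candidates were. For the choices on replicates 2 and 3 the counts were 31815 (87.2%, where 89.4% of all candidates were called) and 33150 (86.9%, where 89.3% were). None of the 3 fits called a chosen region higher, also at an unadjusted p under 0.05. The share called lower was near that of the candidates at large in each fit, and a little below it.

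Most of these regions lie in genes. Of the 34200 on chromosomes for which gene starts were used, 26503 (77.5%) overlapped the span of a protein-coding gene away from a start, against 55.8% of the other candidate regions. Another 1234 (3.61%) lay within 1 kb of a gene start, against 11.6% of the other candidates, and 4996 (14.6%) were intergenic, against 25.4%. The remaining 4.29% overlapped a gene that is not protein-coding. In all, 8710 of 21887 protein-coding genes held at least 1 almost fully methylated region in their span, out of 12966 that held any candidate.

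The mutant level was a little higher in gene bodies than elsewhere. In gene bodies it was 80.1 ± 2.48% in the mutant and 93.0 ± 0.305% in wild type (SD, n = 3 each). At gene starts it was 78.8 ± 2.34% in the mutant and 92.6 ± 0.374% in wild type. In intergenic regions it was 78.5 ± 2.26% in the mutant and 92.3 ± 0.402% in wild type. Gene bodies stood above gene starts and intergenic regions in each of the 3 mutant columns, and also in the wild-type mean. The positions share the same columns, and the difference was not tested.

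The regions were shorter than the other candidates, with a median of 579 bp against 702 bp. Among regions of the authors' list, for which the number of CpGs is deposited, the median was 11 CpGs and 2.21 CpGs per 100 bp in these regions, and 12 CpGs and 1.76 per 100 bp in the rest. The list holds 6.80% of the class and 45.9% of the rest, and its members of the class had each lost at least 20 points. The CpG content of the unlisted regions is not known here. They were spread over the autosomes, making up 27.9% (chromosome 4) to 40.9% (chromosome 10) of each one's candidates. The mean difference by autosome ran from -13.6 to -12.6 points. Only 22 of 92 candidates on the X chromosome and 6 of 26 on the Y chromosome were among them.

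They also lay beside each other. The next candidate downstream belonged to the class after 49.9% of its members, and after 24.5% of the other candidates. The mutant means of adjacent members under 1 kb apart correlated at r = 0.20 (6894 pairs), from 1 to 10 kb apart at r = 0.13 (6952 pairs) and from 10 to 100 kb apart at r = 0.05 (3043 pairs). Such neighbours can share reads, sequence and gene, and the values are a description.

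Gene starts were then examined by sequence. A window of 300 bases shared at least 100 bases with an almost fully methylated region at 384 starts of 359 genes, and these windows had a median of 8 CpGs. The median was 6 in windows within regions at 75% to under 90% in wild type, 7 at 50% to under 75%, 10 at 10% to under 50%, and 20 below 10%. It was 7 over all 32851 windows. At least 20 CpGs were present in 28 of the 384 windows, or 7.29%, against 1.43%, 2.80%, 20.1% and 52.6% in the classes of falling wild-type level and 26.5% of all windows. The order of the class at 90% or more and the class from 50% to under 75% depended on the overlap asked: with at least 1 base shared the shares were 6.73% and 7.36%, against 2.26% from 75% to under 90%.

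**Figure D3:**
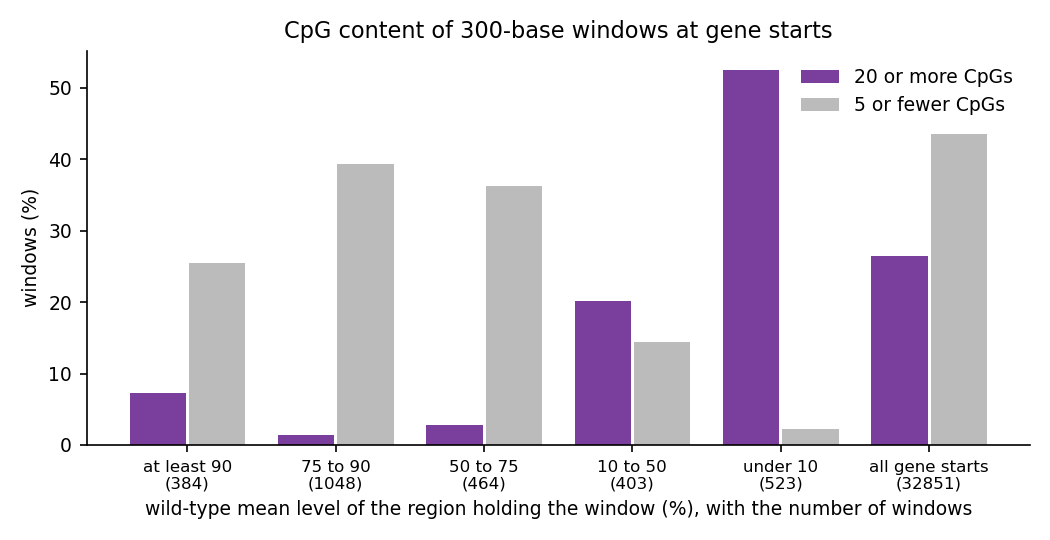
Share (percent) of 300-base windows at gene starts with 20 or more CpGs and with 5 or fewer, by the wild-type mean level of the candidate region that shares at least 100 bases with the window, and over all gene starts. CpG-rich windows make up 7.29% in the class of at least 90%, 1.43% from 75% to 90% and 52.6% below 10%.

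The 28 CpG-rich windows belong to 25 genes, of which 7 stand on the germline list: Ddx4, Stk31, Dazl, Hormad1, Mael, Slc25a31 and Mov10l1. A further 9 are known from work on germ cells, a grouping made after the genes were seen. Tex12 is part of the synaptonemal complex that joins chromosomes in meiosis. Spata22 and Hsf2bp act in meiotic recombination, Brdt is a testis bromodomain protein, and Hsf5 and Dmrtb1 act in sperm formation. Fkbp6, Henmt1 and Btbd18 belong to the piRNA pathway. The other 9 genes are Ctnnd1, Fam178b, Gm13205, Gm52481, Gm671, Krt7, Mcts2, Sap25 and Taf7l2. Ctnnd1 shares its region with Btbd18, so the 2 cannot be separated.

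Counting windows of any CpG content among the 384, the germline list had them at 12 genes, of 22 with a window in the table: the 7 above and Sohlh2, Figla, Tex19.1, Sycp3 and Dpep3. All germline windows in the table had a median of 19.5 CpGs, against 24 in the silencing list, 22 in the housekeeping list and 19 in the developmental list, which had none of the 384. Of the other lists, 11 had none and the T and NK cell list had 1, at Zap70, a T cell kinase gene, with 9 CpGs at an internal start 17186 bp from the outermost start of the gene. Of all 384 windows, 267 were at a gene's outermost start (within 10 bp), and these had a median of 8 CpGs, as the internal ones did.

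Levels at the CpG-rich starts were much like those of the class as a whole. Their 25 regions averaged 79.0%, 80.3% and 82.2% in the mutant columns, against 93.2%, 93.8% and 93.5% in the wild-type columns. The regions of the other 356 windows averaged 78.3 ± 2.26% in the mutant and 92.4 ± 0.494% in wild type (SD, n = 3 each). By limma 22 of the 25 were lower in the mutant, where 93.5% of all candidates were, and as above nothing is read from the count. Among them the mutant mean ran from 59.0% at Mael to 93.5% at Hsf5. A region held from a part to all of the CpGs of its window, as with 9 of 34 at Hsf5 and all 38 at Ddx4.

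Dazl, which encodes an RNA-binding protein of germ cells, kept most of its methylation in the part measured. That region lies upstream of the start and holds 9 of the 28 CpGs of the window. It was at 87.1%, 94.4% and 94.6% in the mutant, against 96.9%, 96.3% and 92.6% in wild type, and the groups overlapped. With 5 kb to each side, Dazl held 2 almost fully methylated regions, which averaged 92.0% in the mutant and 97.0% in wild type. Limma called 1 of them lower, not the region just described, where 93.5% of all candidates were called. Tex12 spread widely, with 84.1%, 74.4% and 55.4% in the mutant, against 96.7%, 96.8% and 93.2% in wild type. Hormad1, a protein of the meiotic chromosome axis, has a window that reaches into 2 regions. The one upstream of the start was at 84.3% in the mutant and 93.4% in wild type, and the one that holds the start at 85.2% in the mutant and 95.5% in wild type. Germline starts with fewer CpGs were at 76.2% (Sohlh2), 79.7% (Figla), 79.6% (Sycp3) and 74.0% (Dpep3) in the mutant, against 91.1% to 92.9% in wild type.

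**Figure D4:**
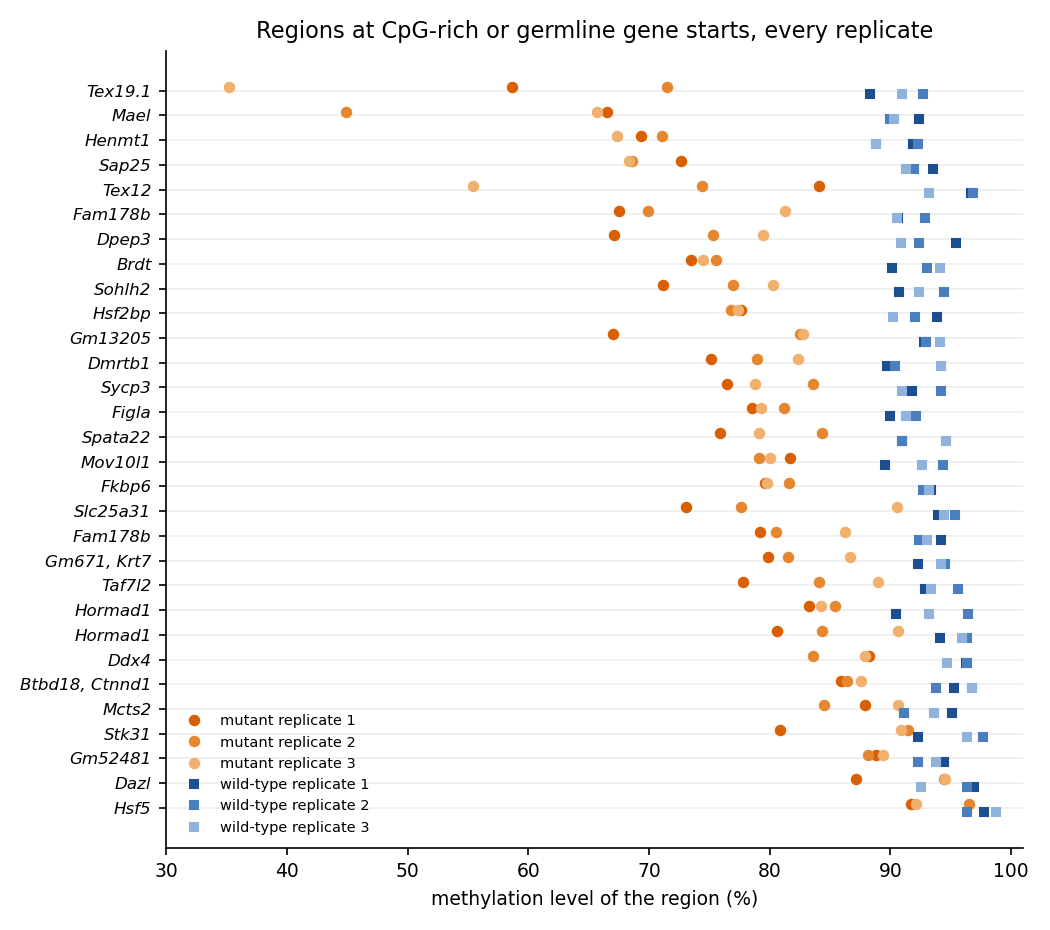
Methylation level (percent) in each of 3 mutant replicates (circles, above) and 3 wild-type replicates (squares, below) for the regions at CpG-rich gene starts and at germline list starts, ordered by mutant mean. Tex19.1 and Mael reach the lowest mutant values, 35.2% and 44.9%, and Dazl and Hsf5 keep mutant means of 92.0% and 93.5%.

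Short motifs were searched on both strands of the 384 windows as a description. CACGTG, the core of the E-box, was present in 44 windows (11.5%), against 7.15% of all 32851 windows of the same length. GGGCGG, the core of the GC box, was present in 66 (17.2%), against 35.7% of all windows. TATAAA was present in 40 (10.4%), against 13.6%. Of the 6 windows printed above, 5 hold CACGTG and Tex19.1 does not. In the classes of falling wild-type level, CACGTG was present in 7.44%, 6.03%, 7.94% and 12.2% of windows. GGGCGG was present there in 18.9%, 25.4%, 48.1% and 62.7%. The GGGCGG and CACGTG motifs each contain a CpG, and whether their shares go with CpG content was not tested.

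The lowest mutant levels were reached inside genes and between them. Among members on the authors' list with at least 10 CpGs, the lowest was an intergenic region at chr7:73921371-73922028 (mm10), at 40.0%, 25.3% and 45.3% in the mutant, against 90.5%, 91.1% and 88.7% in wild type. A region of 894 bp with 41 CpGs in Apc2, a homologue of the tumour suppressor APC, was at 35.7%, 44.7% and 34.2% in the mutant, against 91.4%, 93.7% and 93.4% in wild type. An intergenic region at chr3:149074782-149075033 was at 39.5%, 38.6% and 38.5% in the mutant, against 93.9%, 86.8% and 91.1% in wild type. The groups were far apart in all 3, where each mutant column lay below each wild-type column in 94.3% of all candidates.

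The other 7 of the 10 lowest had mutant means of 39.0% to 42.3% and wild-type means of 90.2% to 91.9%. They lie in 4931422A03Rik, Celf5 (an RNA-binding splicing factor), Tnfrsf11a (the RANK receptor, needed for osteoclasts), Dscam (a neural adhesion molecule), Prelid3a, Nyx (a retinal proteoglycan) and Dpp4 (the CD26 peptidase). These regions were picked for their mutant values, which are therefore a description.

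At gene starts the lowest mutant levels were at Gdpd3, with 52.2%, 28.0% and 48.4% in the mutant, against 91.7%, 87.7% and 90.9% in wild type. The others of the 10 lowest starts had mutant means of 43.9% to 59.0% and included Slc6a9, the glycine transporter GLYT1, at 45.4%, 49.6% and 64.6% in the mutant, against 90.1%, 92.5% and 94.8% in wild type. Tex19.1 and Mael were again among them, and the rest were predicted or non-coding genes.

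The widest spread between mutant replicates occurred in Irgc1, a gene of the immunity-related GTPase family, in a region of 46 CpGs. It was at 68.5%, 72.0% and 23.8% in the mutant, against 90.1%, 92.4% and 91.2% in wild type. Wnt3a, a Wnt ligand that acts on haematopoietic stem cells, followed at 33.4%, 57.4% and 70.7% in the mutant, against 90.9%, 92.1% and 88.8% in wild type. In Kcnj6, a potassium channel gene, the region was at 47.8%, 82.5% and 80.3% in the mutant, against 91.1%, 90.8% and 89.8% in wild type. In Irgc1 the third mutant column and in Kcnj6 the first stood far below the other two, and in Wnt3a the 3 mutant columns were all apart.

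**Figure D5:**
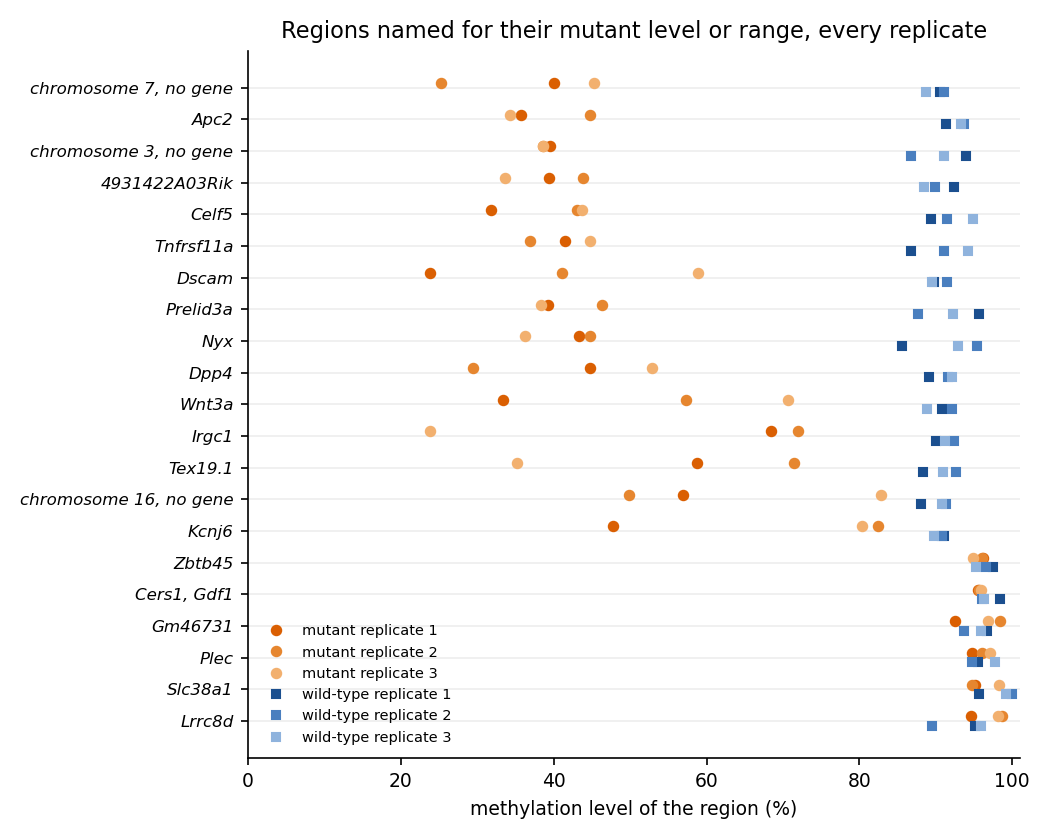
Methylation level (percent) in each of 3 mutant replicates (circles, above) and 3 wild-type replicates (squares, below) for the regions named for the lowest or highest mutant mean or the widest mutant range, ordered by mutant mean. Mutant values reach 23.8% in Irgc1 and Dscam, whereas the 6 regions with the highest mutant means stand above 92% in each mutant replicate.

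Some regions held their methylation. The 6 highest mutant means among regions of at least 200 bp were 95.7% to 97.1% in the mutant and 93.5% to 98.3% in wild type. They lie in Lrrc8d (a volume-regulated anion channel subunit), Slc38a1 (an amino acid transporter), Plec (plectin, a cytoskeletal linker), Cers1 and Gdf1, which share a transcript, Zbtb45, and at the start of Gm46731. Lrrc8d was at 94.7%, 98.7% and 98.1% in the mutant, against 95.1%, 89.4% and 95.9% in wild type. The groups overlapped in 5 of the 6 and were separated by less than 1 point at Cers1 and Gdf1, with the mutant lower. The 5 largest gains were 3.0 to 4.56 points, of which 4 were in regions shorter than 100 bp.

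The most CpGs in a region of the authors' list were 56, in Tjp3, a tight junction scaffold, over 2145 bp. It was at 63.3%, 73.9% and 73.0% in the mutant, against 93.0%, 92.2% and 92.8% in wild type. Cxxc5, a CpG-binding zinc finger protein, followed with 52 CpGs, at 54.4%, 54.1% and 48.9% in the mutant, against 91.5%, 92.2% and 92.8% in wild type. Pou6f1 and Tfr2, the transferrin receptor of erythroid and liver cells, had 45 CpGs each and mutant means of 60.9% and 69.5%, against 91.0% and 92.8% in wild type. The longest regions were those in Dtx2 (4538 bp), Dnah17 and Pgs1 (4414 bp) and Pip5k1c (4075 bp), with mutant means of 77.1%, 80.4% and 79.2% and wild-type means of 90.9%, 93.1% and 92.2%.

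Large genes held many of these regions. Dnah8, an axonemal dynein gene of 249 kb, held 77, or 59.2% of its 130 candidates. They averaged 82.7 ± 2.40% in the mutant and 92.5 ± 0.692% in wild type (SD, n = 3 each). Cit, which encodes citron kinase of the dividing cell's midbody, held 67 of its 78 candidates, at 85.1 ± 1.94% in the mutant and 95.3 ± 0.203% in wild type. It had the most per length of the 7 genes named here, 40.9 per 100 kb. Tiam1, Wwox, Zfhx3, Agap1 and Cmip held 45 to 60 each, at 81.2% to 83.0% in the mutant and 92.4% to 93.5% in wild type.

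Dnmt1 itself is densely covered. Of 28 candidates in its span and 5 kb to each side, 22 were almost fully methylated in wild type. Their mutant means ran from 73.0% to 89.5% and their wild-type means from 92.3% to 97.6%, and 21 were called lower by limma, where 93.5% of all candidates were. The lowest, at chr9:20931966-20932467, was at 73.0%, 74.1% and 71.8% in the mutant, against 94.2%, 95.8% and 91.1% in wild type. Methylation of the gene says nothing of the mutation it carries.

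Among lists of genes, the machinery of DNA methylation and silencing held the largest share of these regions: 82 of the 143 candidates near its genes, or 57.3%, in 14 of the 26 genes, counting 5 kb to each side. With 20 kb to each side the housekeeping list came first, with 82 of 156 (52.6%), and the silencing list had 111 of 219 (50.7%). Within 5 kb, Dnmt1 gave 22, Tet3, an enzyme that oxidises methylcytosine, 17, and Dnmt3a 13. Genes of interferon signalling and nucleic acid sensing followed with 42 of 84 candidates in 14 of 23 genes, and germline genes with 38 of 94 in 20 of 26. Over all 13 lists, 621 of 2492 candidates belonged to the class, or 24.9%, against 32.9% in the whole table. Of the 621, 577 (92.9%) were called lower, where 93.5% of all candidates were, and 0 higher, with a median difference of -12.6 points, against -12.7 points in the class as a whole.

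B cell genes held 57 of 222 candidates in 17 of 30 genes, T and NK cell genes 48 of 199 in 16 of 26, and stem and progenitor genes 77 of 282 in 10 of 25. Erythroid and megakaryocyte genes held 69 of 209 in 11 of 24, among them 24 in Sptb, the erythrocyte spectrin gene. Granulocyte and monocyte genes held 13 of 91 in 5 of 24, and stromal and endothelial genes 19 of 94 in 7 of 18. Imprinted genes held 48 of 201 in 18 of 30, and housekeeping genes 19 of 53 in 8 of 20. The smallest shares were those of developmental Hox-type genes, 17 of 143 in 6 of 30 genes, and of synaptic genes, 92 of 687 in 20 of 32 genes.

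Mutant means of the members near each list lay between 78.5% and 82.0%, where the class as a whole was at 79.8%. Their median differences ran from -14.4 points (stromal and endothelial) to -8.65 points (developmental). Of all candidates 93.5% were called lower, and nothing is read from the lists' counts. The called members were 54 of 57 in the B cell list, 45 of 48 in the T and NK cell list and 71 of 77 in the stem and progenitor list. They were 64 of 69 in the erythroid, 11 of 13 in the granulocyte, 18 of 19 in the stromal and 46 of 48 in the imprinted list. In the germline list they were 34 of 38, in the silencing list 77 of 82, in the developmental list 14 of 17, in the interferon list 40 of 42, in the synaptic list 84 of 92 and in the housekeeping list 19 of 19. Members were not replicates, and several share a gene.

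The regions named for each list were picked for low mutant levels, those at gene starts first, so most lost more than the class. In the blood lists, the region at Zap70 was at 69.7%, 75.0% and 66.4% in the mutant, against 87.1%, 91.0% and 95.9% in wild type. A region of 16 CpGs in Ikzf3, the lymphoid factor Aiolos, was at 65.3%, 68.7% and 68.2% in the mutant, against 86.9%, 90.6% and 95.0% in wild type. In Sptb a region of 35 CpGs was at 56.6%, 63.7% and 49.7% in the mutant, against 91.9%, 88.4% and 91.1% in wild type. The groups did not overlap in these 3 regions, where each mutant column lay below each wild-type column in 94.3% of all candidates.

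A region beside Lck, the T cell kinase, that lies at the start of the neighbouring Fam167b was at 60.6%, 66.7% and 79.9% in the mutant, against 89.8%, 94.1% and 93.9% in wild type. An intergenic region near Bach2, a B cell repressor, averaged 66.6% in the mutant and 94.1% in wild type. Regions in Runx1 and Prdm16, factors of stem cells, averaged 67.9% and 67.3% in the mutant and 91.8% and 92.3% in wild type. Over all members near 4 of these genes the mean difference was -16.7 points in Sptb, -14.1 in Bach2, -12.9 in Runx1 and -12.2 in Prdm16, against -13.0 points in the class. The named regions in the myeloid genes Spi1 (PU.1), Csf1r and Ltf averaged 72.4%, 74.4% and 74.4% in the mutant and 91.2%, 90.2% and 90.7% in wild type.

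The regions named in other lists ranged from a large to a small difference. At an internal start of Dnmt3l, the catalytically inactive partner of the de novo enzymes, the region was at 78.4%, 70.4% and 75.0% in the mutant, against 89.3%, 91.1% and 91.0% in wild type. At the start of Stat2, which transmits interferon signals, it was at 77.0%, 76.3% and 79.1% in the mutant, against 90.2%, 92.8% and 93.5% in wild type. At the start of Piwil1, a piRNA-binding protein of the testis, it was at 69.9%, 78.2% and 72.1% in the mutant, against 90.8%, 88.2% and 93.1% in wild type. A region in Pax2, a kidney and brain factor, averaged 65.5% in the mutant and 92.0% in wild type, and a region in Col1a1, the collagen gene of bone, 63.7% in the mutant and 91.5% in wild type. A region at Grin2b, a glutamate receptor gene, and at the start of Gm14329 averaged 87.4% in the mutant and 90.8% in wild type, with overlapping groups.

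Genes of microRNAs, short RNAs that repress transcripts through bases 2 to 8 (the seed), also lie inside these regions. Of 1005 hairpins in the RefSeq table, 202 were wholly inside a candidate region and 93 of those inside an almost fully methylated one. The 89 regions that hold them had a median mutant mean of 80.6%, from 65.1% to 91.4%, and 88 were called lower, where 93.5% of all candidates were. The mature sequences of 4 well-studied examples, chosen after their values were seen, are shown with the seed in capitals. No seed is shared among them.

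mmu-miR-675-5p: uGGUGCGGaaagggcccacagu

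mmu-miR-34a-5p: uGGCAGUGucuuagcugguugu

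mmu-miR-200b-3p: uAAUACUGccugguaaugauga

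mmu-miR-127-3p: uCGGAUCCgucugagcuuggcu

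Mir675 lies in H19, the imprinted growth-restraining RNA, and its region was at 66.7%, 64.6% and 65.1% in the mutant, against 86.9%, 91.8% and 91.7% in wild type. Mir34a, a target of p53, was at 68.3%, 74.0% and 75.4% in the mutant, against 88.6%, 92.3% and 91.3% in wild type. Mir200b, which maintains epithelial state, was at 67.8%, 74.1% and 79.7% in the mutant, against 91.9%, 91.9% and 92.1% in wild type. Mir127, of the imprinted cluster on chromosome 12, was at 82.4%, 83.8% and 84.5% in the mutant, against 95.2%, 92.5% and 94.8% in wild type. The groups did not overlap in any of the 4, where each mutant column lay below each wild-type column in 94.3% of all candidates. The expression of these RNAs was not measured.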

How the data were processed

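The authors deposited levels as a fraction between 0 and 1 for each candidate region in 3 mutant and 3 wild-type columns, and lists of regions with a mean difference (a score, a difference of fractions), p-values and q-values and the number of CpGs, per the file headers. Regions came from metilene, per the file names, and the submitters' processing notes name mm10. The sources used here do not state the aligner, the caller, the depth or whether a column merges both kits, so no coverage minimum or counting interval was applied. The authors' means differ from the mean of the columns by at most 8.40 points (mutant) and 9.08 points (wild type), so levels here are means of the columns, in percent.

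Each region was fitted with limma 3.58.1 in R 4.3.3, taking levels in percent, and p-values were adjusted by Benjamini-Hochberg over 107115 regions (threshold 0.05). The fit was also run on simulated data, with independent normal noise and known differences put into regions at random. The simulated levels were not bounded and no candidates were picked by their difference, unlike here, so nothing is read from that run. Mean levels were compared by exact permutation (scipy 1.17.1, Python 3.11.15). Differences are mutant minus wild type. Gene spans and windows came from RefSeq for GRCm38.p6, the same assembly as mm10. A list gene counted with 5 kb on each side. Windows of chromosome 18 were not used here. Region coordinates are as deposited.

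The members, the lists and the tests were chosen with earlier results of these data known. Named regions followed 1 rule: the 10 lowest and 6 highest mutant means, the 6 widest mutant ranges, the 10 lowest at gene starts, the 5 with the most CpGs and the 3 longest, the 8 genes with the most members, up to 3 per list, the 5 smallest losses, the 3 on each side of the threshold, and Dnmt1. One gene that the rule names is not reported here. None of the named regions was on the authors' hypermethylated list. Replicate numbers were not taken as pairs: deviations from the group means correlated at 0.04, 0.00 and 0.05 between columns of the same number. These values are small, but each mutant column correlated best with the wild-type column of its own number. The mean level of the class also rose from column 1 to column 3 in both genotypes. Whether the numbers mark a shared batch was not tested. Each pair of columns differed, with median absolute differences of 2.44 points or more. Alternatives changed the rule, the fit, the replicates, the windows and the flanks.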

Additional observations from a re-analysis of the deposited data

How the results depend on the processing

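Of the settings tried, those that redraw the class moved its levels. The wild-type mean was 93.7% with each wild-type column at 90% or more. At a wild-type mean of at least 85% the class averaged 75.5% in the mutant and 90.7% in wild type, and at least 95% gave 85.9% in the mutant, 95.9% in wild type and a difference of -10.1 points. Members on the authors' list averaged 67.9% in the mutant and 91.7% in wild type, a difference of -23.8 points. Each of them had lost at least 20 points, so the choice of the list fixed this larger difference. Read from a wild-type column that had no part in the choice, the wild-type mean was 91.8% (replicate 1) or 92.4% (replicate 2). With at least 20 points asked, 2671 of the same members (7.59%) were called lower, where 34.4% of all candidates had such a call. In the redrawn classes the called were 21539 with each wild-type column at 90% (94.5%), 58597 at 85% (96.4%) and 4401 at 95% (88.2%). Of all candidates 93.5% were called lower. In a fit to the authors' list alone, all 2392 members on it were called lower, as they were in the fit to all candidates. The list was chosen as hypomethylated on these same data, so nothing is read from that count. Without each replicate in turn the mutant mean was 78.6% to 81.0%, the wild-type mean 92.7% to 93.0% and the difference -14.2 to -11.8 points. The called members then numbered 30643 to 33496, or 87.1% to 95.2%. In the fits without a wild-type replicate, 89.3% to 90.3% of all candidates were called lower. The replicate block gave 33147 lower (94.2%) and 0 higher, and pairing changed no named call. The logit fit called 1 region higher, in Fn1 (95.0% in the mutant, 91.7% in wild type). For the block, the logit fit and the fits without a mutant replicate, the share of all candidates called was not taken. Nothing is read from their counts. Members at gene starts numbered 479 with windows of 250 bp before to 50 bp after, and 2359 with 2 kb. The share of CpG-rich windows was 3.68% where all 300 bases were shared, an alternative added after seeing the data, as was the outermost start only (5.99%). Of 82 named regions, Kcnj6 and the region in Evpl and Gm33250 lost their call without certain replicates, and small differences changed sign without 1 replicate in Plec (0.52 and 0.80 points, over a range of -0.70 to 0.80), Gm46731 (-0.74 and -0.35, range -0.74 to 2.20) and an intergenic region on chromosome 4 (range -0.99 to 5.18). The region at Grin2b was called lower only without mutant replicate 2, at -6.45 points, against -3.45 points with all columns. The lists' counts moved by over 1.5 times in 5 of 28 cases, by the flank used. The cause of these moves was not tested. Without depth per region, regions of few reads cannot be told from the rest.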
